A study of Mus musculus with 4 samples.

Results

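The genes of intraflagellar transport (IFT) and of the BBSome were measured in the mouse cell lines TS1 and TS2, both labelled as derived from CD4-positive T lymphocytes. Members were taken from a list of 40 symbols in 8 roles, each read from the brightest probe set that the array's annotation assigns to that gene and to no other. Of these, 38 were measured, out of 19939 genes in all, each by 1 such probe set. Arl6, a small GTPase that recruits the BBSome to membranes, and Arl13b, a small GTPase of the ciliary membrane, had no such probe set and were not measured. Both lines grew in Iscove-Dulbecco's medium with murine interleukin-9 and had no treatment. RNA came from 2 biological duplicates, A and B, of each line, with 1 Affymetrix mouse gene array per duplicate and 4 arrays in all. The labels do not say whether the duplicates were separate cultures, so the p-values measure the spread between these samples, which may be technical. How the lines were derived, and whether each is a clone, is not given in the sources used here.

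IFT moves cargo along the microtubules of the cilium. Its trains are built from the complexes IFT-A and IFT-B, kinesin motors carry them to the tip, and a cytoplasmic dynein brings them back, a return that depends on IFT-A. The BBSome rides on the trains and takes membrane proteins out of the cilium, and a small GTPase and a group of chaperonin-like proteins serve its recruitment and assembly. Lymphocytes are usually described as cells without a primary cilium, and some IFT proteins, Ift20 among them, are known from work on T cells to serve vesicle traffic to the immune synapse.

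Values are given as log2 of the normalized intensity, in the order TS1 A, TS1 B, TS2 A, TS2 B, and differences are TS2 minus TS1 in those log2 units, given with a standard error (SE) from n = 2 arrays per line. A gene is said to be called at a limma p under 0.05 after Benjamini-Hochberg adjustment over all 19939 genes. Exact permutation of 2 against 2 arrays cannot give a two-sided p below 0.333, so no such test is reported. The median over all probe sets of an array lay between 6.47 and 6.53 on the log2 scale, and 10 of the 38 members lay below it on all 4 arrays while 21 lay above it on all 4. Probe sets differ in their response, so that comparison only marks dim signals, and levels are not ranked between genes. Between duplicates, the members' B minus A differences had an SD of 0.290 in TS1 and 0.178 in TS2, against 0.283 and 0.250 over all genes.

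Of 13 measured T cell markers, 9 and 10 were below the array median on the duplicates of TS1 and 6 on each duplicate of TS2, and Cd4 was below it on all 4. The duplicates were far apart for Cd3g, at 10.52 and 6.07 in TS1 and 10.39 and 11.98 in TS2. Of the 13, 4 were called higher in TS2 (30.8%, against 5.05% of all genes) and 1 higher in TS1 (7.69%, against 8.45%). Cd3e and Ptprc, a receptor chain and the leukocyte common antigen, were below the median in TS1 and higher in TS2, and the signalling genes Cd247 (difference 2.83) and Zap70 (2.27) were also higher in TS2, while Lat, an adaptor of the receptor, was higher in TS1 (difference -2.05). The 5 markers of multiciliated cells were below the median on all arrays. Limma called 0 of them, against 13.5% of all genes, and none reached an unadjusted p of 0.05, against 29.4%. Of 29 measured markers of cell types other than T cells, 3 were called, against 13.5% of all genes. All 3 were higher in TS1 (8.45% of all genes). They were Kit, a mast cell marker (difference -1.90), Pdgfra, a fibroblast marker (-1.78), and Cd68, a macrophage marker (-0.64). In the same lists 3 of 5 mast cell, 4 of 5 fibroblast and 3 of 5 macrophage markers had differences above 0. The largest was that of Mcpt4, a mast cell marker (2.96, not called). Its values were 5.45, 5.33, 6.60 and 10.10, far apart between the TS2 duplicates. Kit kept its call whichever array was left out, while Pdgfra lost it in each case but the removal of TS1 A, and Cd68 in each case but that of TS1 B. The mean log2 level of the mast cell list lay between 7.69 and 7.73 in TS1 and between 7.64 and 8.10 in TS2. For the fibroblast list it was 5.84 to 6.15 against 5.65 to 5.78, and for the macrophage list 5.45 to 5.49 against 5.25 to 5.35. The part of these markers in the results below was not tested, and in bulk RNA fewer cells of a type and less RNA per cell cannot be told apart.

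Among the measured members, Wdr19 had by far the largest difference. Wdr19 was 78.6-fold brighter in TS1, Bbs4 was 2.74-fold brighter in TS1, and the other 36 members differed by less than 2-fold in either direction. In all, 8 of the 38 members were called (21.1%), against 13.5% of all genes. Higher in TS1 were 7 (18.4%, against 8.45%): Wdr19 and Ift122 of IFT-A, Ttc26, Ift27 and Cluap1 of IFT-B, and Bbs4 and Bbs2 of the BBSome. Wdr35 of IFT-A was higher in TS2 (2.63%, against 5.05%). Leaving Wdr19 aside, 6 of 37 were higher in TS1 (16.2%). Called with at least a 2-fold difference were 2 members (5.26%), against 5.19% of all genes, so the share of large differences was near the background. Both of these were higher in TS1, against 2.94% of all genes. For 22 members (57.9%) both arrays of 1 line lay above both of the other, against 58.4% of all genes, which is again near the background. The median difference was -0.10 over the members and 0.013 over all genes, and 25 members lay below 0 (65.8%, against 47.3% of all genes). A tilt of like size stood between the duplicates of TS1, where B lay below A for 24 members (63.2%, against 44.2% of all genes). In TS2 B lay below A for 21 members (55.3%, against 53.0%). Without TS2 A the call was kept for 2 of the 8 members, and without TS2 B for 4, while the calls over all genes went from 2691 to 980 and 1035.

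**Figure D1:**
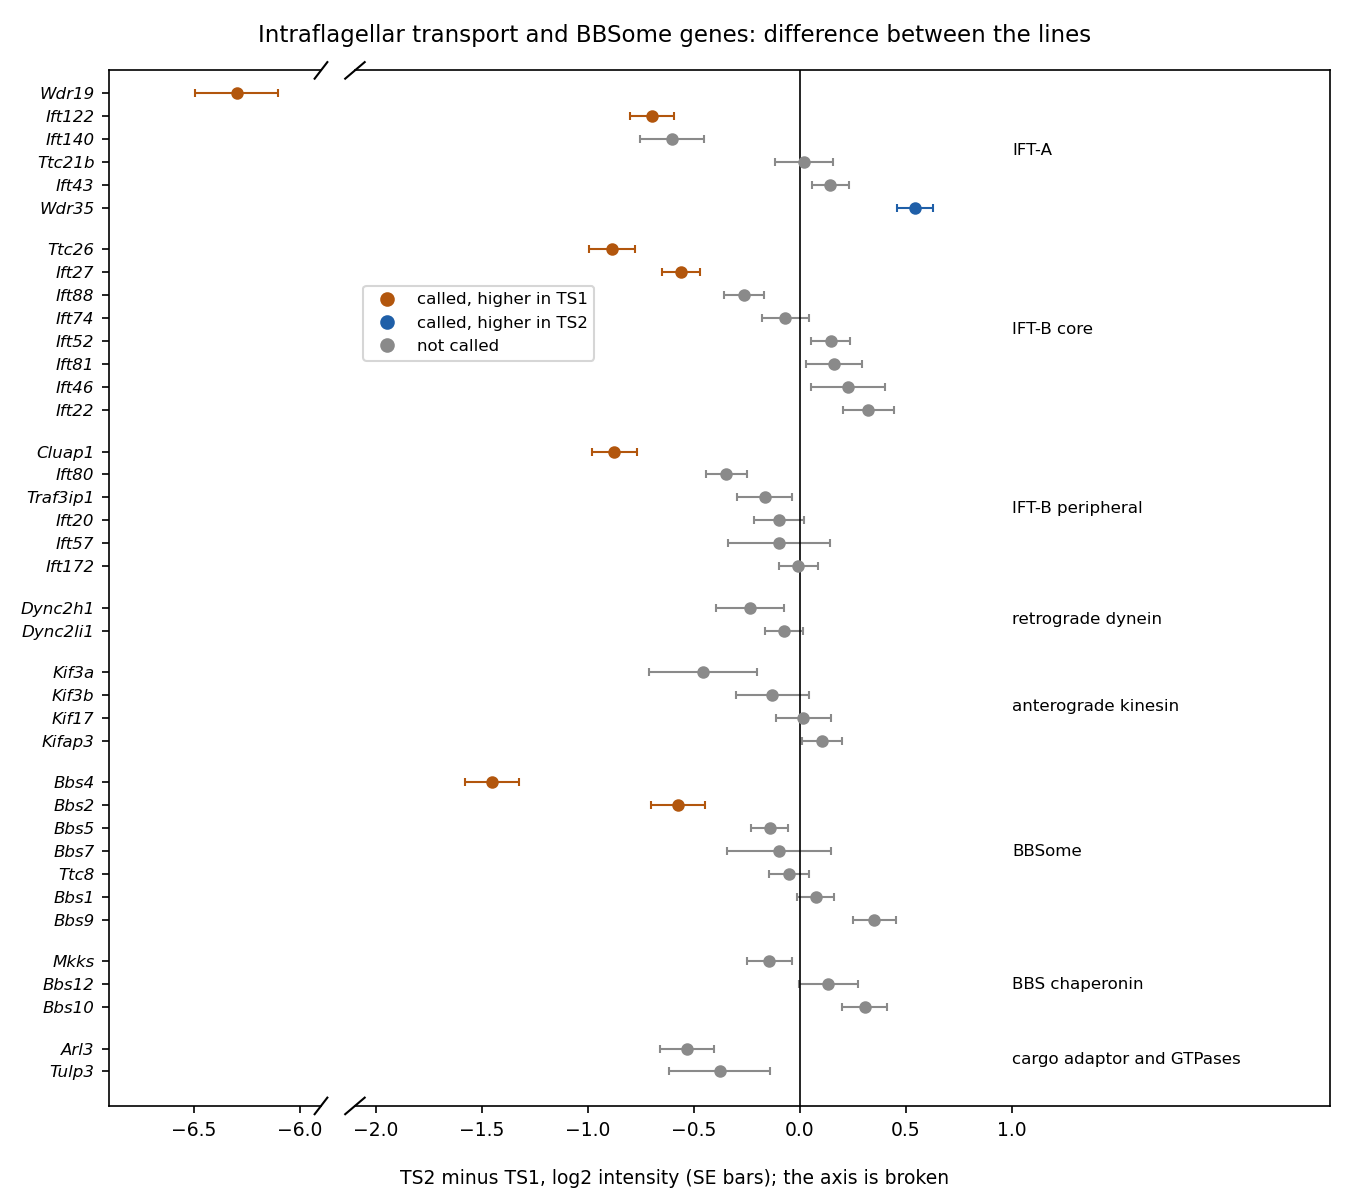
Difference between the lines (TS2 minus TS1, log2 intensity, points, with SE bars) for the 38 measured genes, grouped by role, with called genes in colour and a broken horizontal axis of one scale. Wdr19 stands at -6.30, Bbs4 at -1.45, and the other 36 genes lie between -0.89 and 0.54.

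Wdr19 encodes a core subunit of IFT-A, also known as IFT144. Its log2 intensities were 11.60 and 11.58 in TS1, and 5.57 and 5.01 in TS2. Both TS1 arrays were bright and both TS2 arrays were below the array median, with no overlap. The difference was -6.30 (SE 0.20, 95% interval -6.80 to -5.79, adjusted p = 0.000313). By size it stood 2nd among all genes higher in TS1. Wdr19 was already known to have this difference when the gene list was drawn up, so its adjusted p is a description. Signal over background was not examined, so the fold is uncertain where the TS2 signal is dim. The call was kept whichever array was left out (adjusted p = 0.00184 to 0.00309).

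The rest of IFT-A did not show a difference of that kind. Ift122, a further core subunit, had values of 6.58, 6.43, 5.86 and 5.75, all but that of TS1 A below the array medians. Ift122 was called higher in TS1, with both TS1 arrays above both of TS2 (difference -0.70, SE 0.10, adjusted p = 0.0174). Leaving out an array of TS2 ended this call (adjusted p = 0.0758 for A and 0.103 for B). Wdr35, the subunit IFT121, went the other way with values of 4.56, 4.57, 5.10 and 5.12, all below the array medians. Its duplicates lay close together and the lines did not overlap (difference 0.54, SE 0.085, adjusted p = 0.0196). Leaving out any 1 array ended the call of Wdr35 (adjusted p = 0.0527 to 0.116), while its difference stayed between 0.54 and 0.55.

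Ift140, the third large core subunit besides Wdr19 and Ift122, had values of 8.09, 8.45, 7.75 and 7.59. The TS1 arrays were both higher, but the gene was not called (difference -0.60, SE 0.15, adjusted p = 0.0640), and it was called without TS1 A (adjusted p = 0.0375). Ift43, a small peripheral subunit, had values of 6.35, 6.31, 6.44 and 6.51 (difference 0.14, 95% interval -0.084 to 0.37). Ttc21b, the peripheral subunit IFT139, had values of 8.69, 8.36, 8.50 and 8.59, with overlapping lines (difference 0.019, 95% interval -0.33 to 0.37). Over the other 5 IFT-A genes the median difference was 0.019, and their 95% intervals together ran from -0.99 to 0.76, far from that of Wdr19.

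Set against the median of the other 5 on the same array, Wdr19 was higher by 5.02 and 5.15 in the TS1 duplicates and lay at -0.87 and -1.50 in those of TS2. The difference of Wdr19 minus the median difference of the other 5 was -6.32. This is a contrast within IFT-A of how far the signals moved, with no test, and shows unequal change only. By size Wdr19 stood apart from the other 5, and by call it had Ift122 on its side and Wdr35 on the other.

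**Figure D2:**
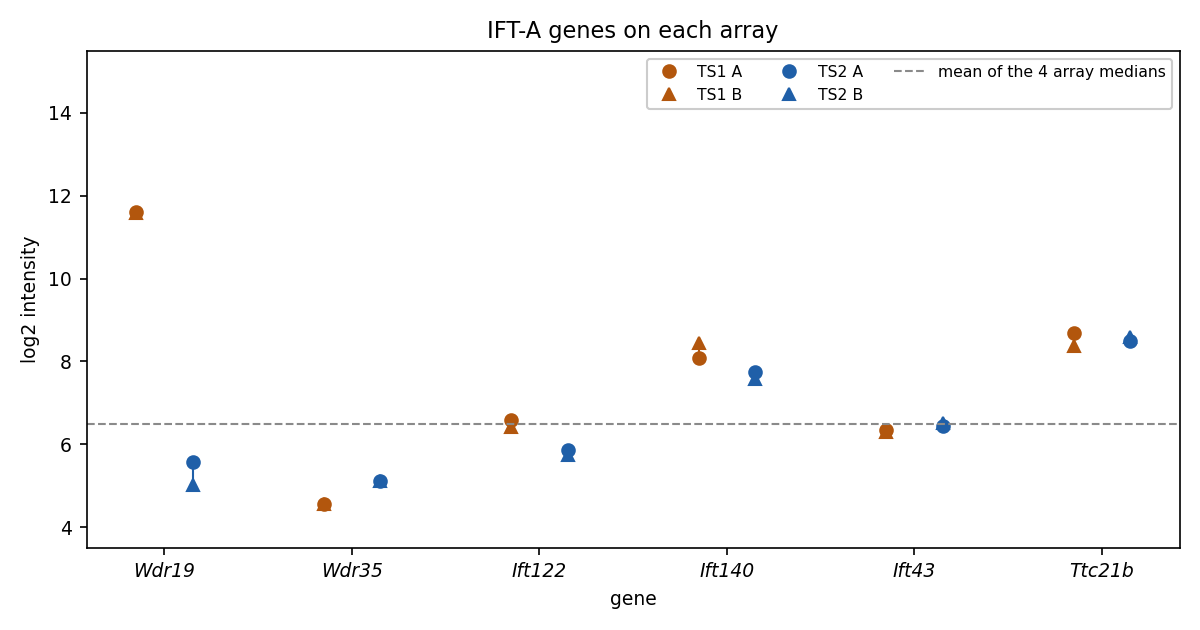
Log2 intensity of the 6 IFT-A genes on each array (circles for duplicate A, triangles for B, orange for TS1, blue for TS2), with the mean of the 4 array medians as a dashed line. Wdr19 lies at 11.58 and 11.60 in TS1 and below the dashed line in TS2, and the other 5 genes stay within 1 log2 unit between the lines.

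The genes beside Wdr19 were read to show how far along the chromosome the difference reached. In RefSeq's genes for mouse build GRCm38.p6, Wdr19 lies at chr5:65199696-65260415. The stretch of 250 bases just before its start, chr5:65199446-65199695 on the + strand, is printed because Wdr19 carries the largest difference of the set, and the motifs searched for below do not occur in it, so no letter is in capitals.

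Wdr19: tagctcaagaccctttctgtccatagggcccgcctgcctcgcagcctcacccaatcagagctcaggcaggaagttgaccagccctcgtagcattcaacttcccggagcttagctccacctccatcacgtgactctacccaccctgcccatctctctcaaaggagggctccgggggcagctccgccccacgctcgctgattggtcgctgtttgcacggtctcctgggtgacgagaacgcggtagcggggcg

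The nearest measured gene before Wdr19 was Klhl5, a kelch-like gene, with values of 9.71, 9.58, 9.43 and 9.57 (difference -0.15, SE 0.10, adjusted p = 0.431). On the other side lay Rfc1, the large subunit of the clamp loader of DNA replication, at chr5:65261852-65338617. Rfc1 had values of 10.14, 10.06, 10.16 and 10.19 (difference 0.077, SE 0.089, adjusted p = 0.637). Neither neighbour was called. Klb, a coreceptor of fibroblast growth factors, was dim on all arrays (difference -0.066), and Rpl9, a ribosomal protein gene with many processed copies, was near 12.9 on all arrays (difference -0.0089). Further before Wdr19, Fam114a1 (difference 1.24, adjusted p = 0.0195) and Tlr6, a toll-like receptor (difference 1.52, adjusted p = 0.0102), were called in the opposite direction, higher in TS2. Both calls were lost when either TS2 array was left out, and these genes overlap each other, so they may not be separate measurements. Of the 6 measured neighbours, 3 on each side, 2 were called (33.3%, against 13.5% of all genes), both higher in TS2 (5.05% of all genes).

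**Figure D3:**
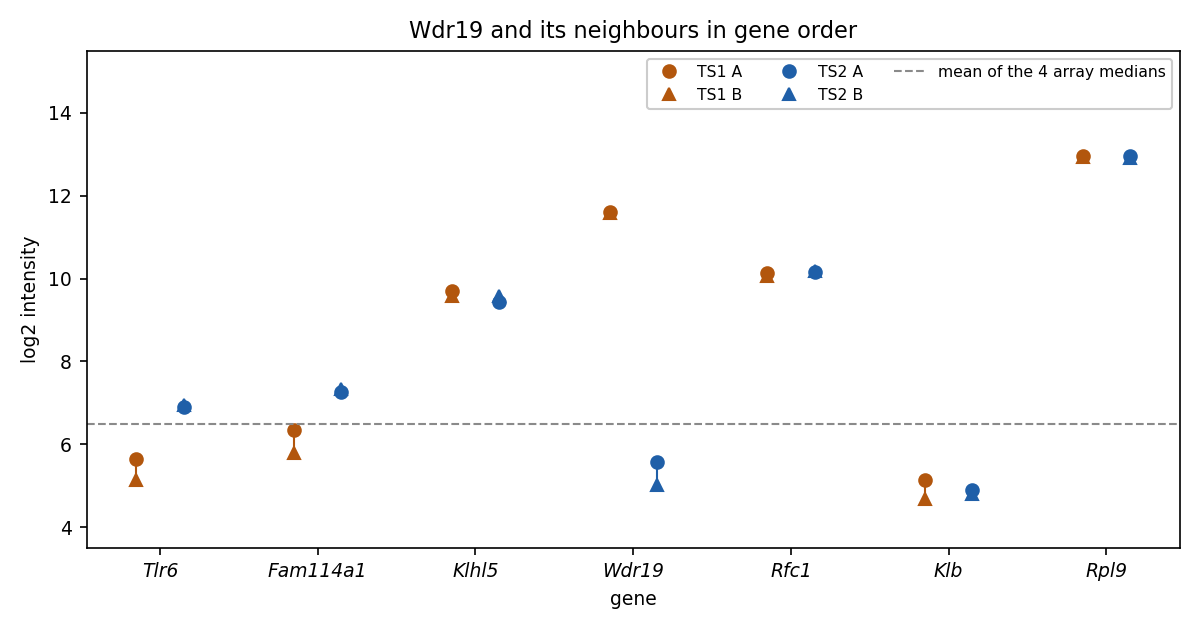
Log2 intensity of Wdr19 and the 3 measured genes on each side of it, in chromosomal order, on each array (symbols as for the IFT-A genes, dashed line at the mean of the 4 array medians). Klhl5 and Rfc1, next to Wdr19, lie at like levels in both lines, and Tlr6 and Fam114a1 are higher in TS2.

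IFT-B carries cargo outward and is the larger complex. Of its 14 measured genes, 3 were called (21.4%, against 13.5% of all genes), all higher in TS1 (8.45% of all genes), and 11 were not, with a median difference of -0.10. In the core, Ttc26, the subunit IFT56, had values of 6.22, 6.08, 5.18 and 5.34, all below the array medians. Ttc26 was lower on both TS2 arrays (difference -0.89, SE 0.11, adjusted p = 0.0102). Ift27, a small GTPase-like subunit that links IFT-B to export by the BBSome, had values of 10.12, 10.18, 9.56 and 9.61, again without overlap (difference -0.56, SE 0.088, adjusted p = 0.0203). Among the peripheral subunits Cluap1, also called IFT38, had values of 8.72, 8.61, 7.70 and 7.87 (difference -0.88, SE 0.11, adjusted p = 0.0103). These 3 genes were thus 1.48-fold to 1.85-fold brighter in TS1. Ttc26 and Cluap1 lost their calls without TS2 A (adjusted p = 0.0615 and 0.0613). Ift27 lost its call without TS1 B (adjusted p = 0.0680), TS2 A (0.125) or TS2 B (0.103), although its difference stayed between -0.60 and -0.53.

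Of the 11 IFT-B genes not called, Ift80 had the largest difference at -0.35 (adjusted p = 0.0825), and Ift22, a small GTPase-like core subunit, lay on the other side at 0.32 (adjusted p = 0.155). Ift88, a core subunit whose loss prevents cilium assembly, differed by -0.27 (values 6.70, 6.57, 6.37 and 6.38). The scaffold subunits Ift46, Ift52, Ift74 and Ift81 ran from -0.070 to 0.23, and Ift74 and Ift81 were below the array medians on all arrays. Ift20, the subunit known also from the Golgi and the immune synapse, was bright in both lines at 12.11, 12.02, 11.84 and 12.09 (difference -0.10, 95% interval -0.40 to 0.20). Ift57 had a wide spread in TS1, with values of 7.55, 6.89, 7.25 and 6.99 (difference -0.10), and a 95% interval of -0.72 to 0.52. Ift172 and Traf3ip1, the latter the tubulin-binding subunit IFT54, differed by -0.0078 and -0.17.

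Among the motors, limma called 0 of the 2 dynein members and 0 of the 4 kinesin members, against 13.5% of all genes. None of these 6 had an unadjusted p under 0.05, against 29.4% of all genes. So few genes are too few to set against either share. Dync2h1, the heavy chain of the returning dynein, had values of 8.36, 7.97, 8.02 and 7.84 (difference -0.24, SE 0.16). Dync2li1, its light intermediate chain, was dim on all arrays, between 4.23 and 4.35. Further dynein subunits stood in the other ciliary lists below. Dync2i1, Dync2i2 and Dynlt2b differed by -0.58, -0.98 and -0.43, not called, and Dynll2 by -0.42, called (adjusted p = 0.0477). Dynll1, Dynlrb1 and Dynlrb2 differed by -0.0071, -0.029 and 0.075, not called. Kif3a and Kif3b, the motor subunits of the outward kinesin-2, differed by -0.46 (SE 0.25) and -0.13 (SE 0.17). Kif3a alone was 8.10 on TS1 A and 7.40, 7.14 and 7.45 on the other arrays, which makes its 95% interval wide, from -1.11 to 0.19. Kifap3, the accessory subunit of that kinesin, and Kif17, a homodimeric kinesin-2, were below the array medians on all arrays and differed by 0.11 and 0.016.

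Among the 38 members, the BBSome held the largest difference after Wdr19. Bbs4, a subunit that also binds the centriolar satellite protein Pcm1, had values of 7.93, 7.87, 6.59 and 6.30. Both TS1 arrays were above both TS2 arrays (difference -1.45, SE 0.13, adjusted p = 0.00406). Its call was kept whichever array was left out (adjusted p = 0.0111 to 0.0205). Bbs2, which sits in the core of the complex, had values of 7.22, 7.49, 6.71 and 6.85, with no overlap (difference -0.58, SE 0.13, adjusted p = 0.0486). Bbs2 was the called member nearest the threshold, and Arl3 below was the nearest on the other side. The call of Bbs2 was lost without TS1 B (adjusted p = 0.116), TS2 A (0.221) or TS2 B (0.142) and with a prior variance that follows intensity (0.0533).

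The other 5 BBSome genes were not called, so 2 of 7 were (28.6%, against 13.5% of all genes). Bbs9, a core scaffold subunit, was higher on both TS2 arrays, with values of 9.14, 9.08, 9.54 and 9.37 (difference 0.35, SE 0.10, adjusted p = 0.0930). Bbs1, the subunit bound by the recruiting GTPase, had values of 6.44, 6.41, 6.49 and 6.50 (difference 0.073). Bbs7, the partner of Bbs2 in the core, was 7.60 on TS1 A and between 6.87 and 7.16 elsewhere (difference -0.100, 95% interval -0.73 to 0.53). Bbs5, which binds phosphoinositides, was dim on all arrays (difference -0.14), and Ttc8, the subunit BBS8, differed by -0.052. Within the complex, Bbs4 and Bbs2 were thus called higher in TS1 while Bbs9 lay on the other side of 0, and differences between these genes were not tested.

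Among the chaperonin-like proteins that assemble the BBSome, limma called 0 of 3, against 13.5% of all genes. At an unadjusted p under 0.05 there was 1 gene, against 29.4% of all genes. That gene, Bbs10, was higher on both TS2 arrays at 6.33, 6.37, 6.55 and 6.75 (difference 0.30, SE 0.11, adjusted p = 0.137). Bbs12 differed by 0.13 and Mkks, also called BBS6, by -0.14. Tulp3, the adaptor through which IFT-A brings membrane receptors into the cilium, had values of 7.78, 8.42, 7.87 and 7.57 (difference -0.38, SE 0.24, adjusted p = 0.375). The spread of Tulp3 within TS1 was larger than its difference between the lines. Arl3, a small GTPase that releases lipidated cargo inside the cilium, had values of 8.96, 9.26, 8.60 and 8.56, higher on both TS1 arrays, but was not called (difference -0.53, SE 0.13, adjusted p = 0.0573). It was called without TS1 A (adjusted p = 0.0346), as Ift140 was.

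Other ciliary genes were read from 6 lists of 106 genes, of which 5 had no single-gene probe set. Limma called 10 of those measured (9.9%), 8 higher in TS1 and 2 in TS2, against 13.5% of all genes. Among 20 measured further parts of IFT, the BBSome and their motors, 3 were higher in TS1 and 1 in TS2 (20% called, against 13.5% of all genes). Rabl2, a small GTPase that starts the entry of IFT-B trains, was 8.79, 9.12, 6.96 and 7.35 (difference -1.80, SE 0.18, adjusted p = 0.00618). Ttc30a1, an IFT-B subunit with near-identical copies, was dim and higher in TS2 (difference 0.97, adjusted p = 0.0332), and Cilk1, a kinase of the ciliary tip, was higher in TS1 (difference -0.94, adjusted p = 0.00794). Ttc30a1 lost its call without either TS2 array and Cilk1 without TS2 B (adjusted p = 0.0529), while Rabl2 kept its call whichever array was left out.

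Of 19 measured transition zone genes, 2 were called (10.5%, against 13.5% of all genes), both higher in TS1 (8.45% of all genes). Parts of the gate at the base of the cilium, they were B9d1, with values of 8.01, 7.75, 6.84 and 6.91 (adjusted p = 0.00971), and Rpgrip1l (difference -0.84, adjusted p = 0.0160). Of 19 genes of the basal body and of cilium assembly, 2 were higher in TS1 and 1 in TS2 (15.8% called, near the share of all genes). Cby1, a protein of the basal body, differed by -1.01 (adjusted p = 0.0122), Rab8a, a GTPase of vesicle traffic to the cilium, by 0.56 (adjusted p = 0.0354), and Rab3ip, the exchange factor of Rab8a, by -0.42 (adjusted p = 0.0402). All 5 calls were lost without TS2 A, and those of B9d1, Cby1, Rab8a and Rab3ip also without TS2 B. Leaving out TS1 B ended the calls of Rpgrip1l, Rab8a and Rab3ip, and leaving out TS1 A that of Rab3ip.

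The hedgehog pathway, which in vertebrates signals through the cilium, gave 1 called gene of 16 (6.25%, against 13.5% of all genes). Smo, the membrane protein that starts the pathway inside the cell, had values of 10.22, 10.10, 6.52 and 6.51, a 12.5-fold excess in TS1 (difference -3.65, SE 0.093, adjusted p = 0.000214). Leaving out any 1 array kept the call. Ptch1, the receptor and a target gene of the pathway, had values of 9.32, 9.35, 9.24 and 9.12 (difference -0.15, adjusted p = 0.359), and Gli1, another target, differed by 0.14 (adjusted p = 0.384). Against the same 13.5%, limma called 0 of the 16 measured motile cilium genes, with 0 at an unadjusted p under 0.05. Of the 11 transcription factors of ciliary genes it also called 0, with 1 at an unadjusted p under 0.05. Of these, Rfx1, Rfx2 and Rfx3, which bind the X-box of ciliary promoters, differed by 0.13, -0.18 and 0.0092.

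**Figure D4:**
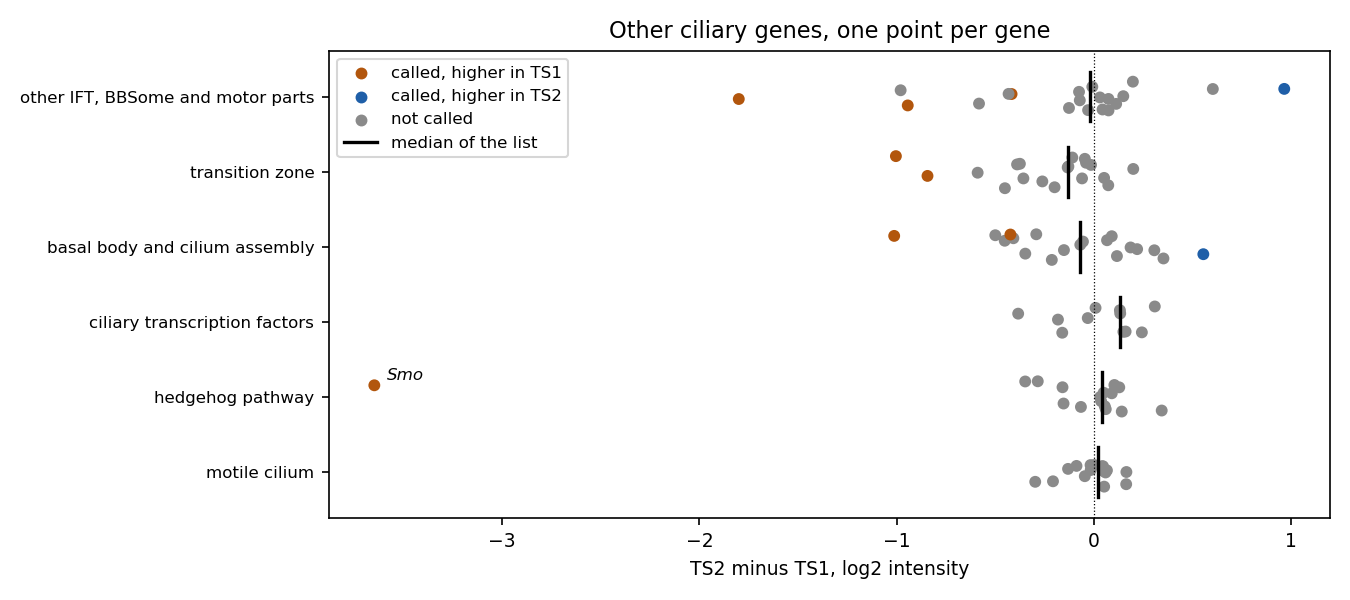
Difference between the lines (TS2 minus TS1, log2 intensity) of the measured further ciliary genes in 6 lists, 1 point per gene with called genes in colour and the median of each list as a bar. Smo lies at -3.65, far from the other genes, and the medians lie between -0.13 and 0.13.

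The promoters of the set were searched for the X-box, the binding motif of RFX factors that many IFT and BBSome genes are known to carry, since a shared site would be a feature of the set that the gene list did not use. The window ran from 250 bases before to 50 after each gene's start in RefSeq, assembly GRCm38.p6, and 36 of the 40 genes had one, with Ift122, Ift80, Ift81 and Dync2li1 not in the table. The motif has 14 letters, its degenerate letters were left free, and matches on either strand were taken. It was found in 6 of the 36 (16.7%), against 2.49% of 27025 genes with such a window. The 6 were Bbs1, Bbs4, Bbs7, Ift22, Ift57 and Ttc26. The shorter motif GTTGCC, which can be part of it, was found on either strand in 15 of the 36 (41.7%), against 14.1% of all. Wdr19 had neither. Of the 7 called genes with a window 2 held the X-box, and of the 27 measured but not called 4 did. A match describes letters and not a bound site, and the lack of one in this window says nothing of RFX factors.

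The matches before the gene start are printed with their flanks, 5′ to 3′ on the gene's strand with the matching letters in capitals, to set Ttc26, which was called, beside Bbs7, Ift22 and Ift57, which were not. The matches of Bbs4, which was called, and of Bbs1, which was not, began after the gene start and are not printed. The Ift57 match and the farther one of Ift22 fit the motif read on the opposite strand only. Of the printed genes Ift22 had 2 matches, and the others 1 each. They lie at chr6:38381478-38381517 (+) for Ttc26, chr3:36613484-36613523 (-) for Bbs7, chr5:136908074-136908113 (+) and chr5:136908104-136908143 (+) for Ift22, and chr16:49699194-49699233 (+) for Ift57.
Ttc26: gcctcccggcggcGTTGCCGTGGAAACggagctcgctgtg
Bbs7: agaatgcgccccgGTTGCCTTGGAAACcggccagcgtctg
Ift22, farther match: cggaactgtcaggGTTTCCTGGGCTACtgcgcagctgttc
Ift22, nearer match: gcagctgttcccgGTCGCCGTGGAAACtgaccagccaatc
Ift57: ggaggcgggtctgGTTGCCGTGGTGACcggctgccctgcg
The differences of these genes were -0.89 for Ttc26, -0.100 for Bbs7, 0.32 for Ift22 and -0.10 for Ift57, and whether they differ from each other was not tested.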

How the data were processed

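RNA of both lines was hybridised to Affymetrix mouse gene arrays. Per the submitters' processing notes, the authors used Affymetrix Expression Console and RMA, which corrects background, normalizes between arrays and summarises probes, so a shift shared by most genes is removed. The deposited table holds linear intensities, from 5.98 to 23157, with 0 missing or non-positive, although log2 values had been assumed when the tests were chosen. Here log2 was taken. Of 35556 probe sets, 21789 named 1 gene, and symbols were updated through RefSeq (GRCm38.p6). All 4 arrays entered one limma 3.58.1 model (R 4.3.3, with version 1.17.8 of data.table) with 2 residual and 3.03 prior degrees of freedom. In 20 simulations of this comparison over 19939 genes, 200 genes were shifted and the noise was independent between genes. The model found 65.2% of genes shifted by 1 log2 unit and 95.2% of genes shifted by 2, with 8.05 false calls on average. The data held 2691 calls, so these figures need not carry over to them. Promoters came from RefSeq.

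The members, the further lists and the tests were chosen with earlier results of these data known, among them the difference of Wdr19. Named are all IFT-A genes, every called member, up to 3 called genes of each further list, and the measured genes 3 on each side of Wdr19. Ptch1, Gli1, the RFX factors and the further dynein subunits were named after their values were seen. The number of arrays limits the precision. Detection calls and scan batches were not used. As alternatives, each array was left out in turn and the model was refitted with the replicate letter as a blocking term, other prior variances, centring, quantile normalization, filters on dim probe sets, the mean of a gene's probe sets, no moderation and a stricter threshold. The letters A and B were not taken to pair the arrays, since the labels do not say so.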

Additional observations from a re-analysis of the deposited data

How the results depend on the processing

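The number of members called was 7 higher in TS1 and 1 higher in TS2. With 1 array left out it was 2 to 9 higher in TS1 and 0 higher in TS2, where the lone array of a line is taken to vary as the pair of the other does, and fewer degrees of freedom remain. At an adjusted p under 0.01 the number of members called was 2 and 0, thus 2 of 38, against 4.05% of all genes. Without moderated variances it was 0 and 0, with 8 members and 4156 genes at an unadjusted p under 0.05, and the adjusted p of Wdr19 was 0.129 at an unchanged difference of -6.297. Leaving out the dimmest 30% or 50% of probe sets gave 7 and 0. At 30% that was 7 of 32 members, against 2867 of 14349 genes. At 50% it was 7 of 23 members, against 2900 of 10194 genes. Under both filters the share of members called was thus near that of all genes, unlike the main 21.1% against 13.5%. The 32 and 23 members left did not include Wdr35, and at 50% Ift122 and Ttc26 were also not tested while Ift140 and Arl3 were called (adjusted p = 0.0488 and 0.0424). Such a filter keeps a gene that is bright in 1 line. The replicate letter as a block gave 5 higher in TS1 and 0 higher in TS2 (all genes: 1666 against 2691), without the calls of Wdr35 (adjusted p = 0.0553), Ift27 (0.0522) and Bbs2 (0.0563). Arrays of the same letter share only that letter, with no pairing stated in the labels, and the B minus A differences of the lines correlated at -0.029 across genes. The difference of Wdr19 minus the median of the other IFT-A genes ran from -6.643 to -5.989 with 1 array of TS1 or TS2 left out, against -6.316. No difference of a called member changed sign under any alternative. Centring and quantile normalization moved the median of all genes by 0.024 and 0.0062. Signal over background was not examined and limits the values of dim genes.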
